A study of Homo sapiens with 24 samples.

Results

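Insulin-like growth factors (IGFs) are secreted peptides that resemble insulin and signal through the receptor tyrosine kinase IGF1R. In tissue fluid they are held by IGF-binding proteins (IGFBPs), which carry the peptides, keep them from the receptor and release them when proteases cut the binding protein. In the nervous system IGF1 and IGF2 are known for supporting the survival of neurons and the growth of axons. The genes described here are the ligands IGF1 and IGF2, the receptor IGF1R and the binding proteins IGFBP2, IGFBP3, IGFBP4, IGFBP5, IGFBP6 and IGFBP7. These 9 genes were chosen by symbol from the 36468 entries of the count table, where each had 1 entry, and 9 of 9 passed the filter on low counts, a total of at least 10 reads over the libraries, which 29377 entries passed in all.

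Sensory neuron cultures were differentiated from the human embryonic stem cell line H9WA09 (labelled H9WAO9, wild type) by way of vagal neural crest cells. The study names these cells as a source of airway sensory neurons in development. Polyadenylated RNA was sequenced from 6 differentiation batches under 4 treatments, 24 libraries in all, each from a whole culture in which neurons were mixed with other cells. Vehicle cultures received bovine serum albumin in phosphate-buffered saline, TGF-β cultures 2 ng/ml transforming growth factor β, and IL-4+IL-13 cultures 10 ng/ml interleukin 4 with 3 ng/ml interleukin 13, for 5 days. The dose and time of the IL-6 (interleukin 6) cultures are not given in the sources used here. All libraries come from the same cell line, so batches are repeated differentiations and not different donors. TGF-β, IL-4 and IL-13 are cytokines of airway remodelling and type 2 inflammation, and the comparisons ask how each changes the expression of the cultures.

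Between 33342682 and 39817784 reads were counted per library. After the mean of each treatment was taken off, 19 of 24 libraries correlated best with libraries of their own batch. The vehicle library of batch 2 did not: its mean correlation was 0.601 with the treated libraries of batch 4 and -0.00975 with those of its own batch. The vehicle library of batch 4 correlated at 0.518 with batch 2 and at 0.176 with its own batch. The 3 treated libraries of batch 4 correlated best with batch 3, at 0.579 to 0.726 beside 0.427 to 0.55 with their own batch. Labels were used as given. Whether the 2 vehicle labels are exchanged was not tested, and it bears on each count of batches and within-batch difference of batches 2 and 4. Results that rest on these libraries are therefore also given without them. Among response genes, CISH, CCL26 and ALOX15, known targets of IL-4 and IL-13, rose under IL-4+IL-13 (3 of 4 listed, beside 0.633% of entries that passed). The study lists these 3 among the genes that separate its treatments, so their rise is not an independent check. Of 5 listed TGF-β targets, 0 passed the test under TGF-β against vehicle (0.347% of entries did) and 4 against IL-4+IL-13 (2.98%). Of 2 listed IL-6 targets, 0 passed under IL-6 (0% of entries). Neuron markers were present in every library (6 of 6 genes, summing to 1150 to 5250 counts-per-million, CPM), and so were mesenchymal markers (7 of 7 genes, 2670 to 13400). Smooth muscle markers summed to 351 to 1710 CPM (5 of 5 genes), epithelial markers to 222 to 1020 (5 of 5 genes) and glial markers to 61.7 to 175 (6 of 6 genes). Endothelial markers summed to at most 157 CPM, leukocyte markers to at most 54.2 and pluripotency markers to at most 0.135. In such mixed cultures, fewer cells of a type and less RNA per cell cannot be told apart.

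IGF1 (chromosome 12, 102395874 to 102481839, GRCh38.p14) was the only one of the 9 genes that passed the test in a comparison with vehicle, and IGFBP4 and IGFBP5 were the binding protein genes that moved apart most between TGF-β and IL-4+IL-13. The 250 bases before their annotated starts are shown so that the members can be compared in a motif that IL-4 and IL-13 signalling is known to use. Sequences are from RefSeq (GRCh38.p14), 5′ to 3′ on the strand of the gene. Capitals mark TTC and GAA with 4 bases between them, the paired half-sites bound by the transcription factor STAT6, and TATAAA, the core of a TATA box.
IGF1, first start, minus strand, chr12:102481748-102481997: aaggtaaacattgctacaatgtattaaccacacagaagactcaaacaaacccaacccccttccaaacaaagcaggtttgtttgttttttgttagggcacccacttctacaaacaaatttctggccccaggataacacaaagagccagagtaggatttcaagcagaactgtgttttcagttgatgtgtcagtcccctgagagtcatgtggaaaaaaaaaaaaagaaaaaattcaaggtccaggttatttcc
IGF1, second start, minus strand, chr12:102478551-102478800: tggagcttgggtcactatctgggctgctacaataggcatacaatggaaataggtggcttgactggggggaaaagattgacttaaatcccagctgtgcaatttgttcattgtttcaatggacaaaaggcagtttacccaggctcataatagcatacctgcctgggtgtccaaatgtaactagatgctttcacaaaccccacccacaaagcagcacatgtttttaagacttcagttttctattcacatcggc
IGFBP4, plus strand, chr17:40443200-40443449: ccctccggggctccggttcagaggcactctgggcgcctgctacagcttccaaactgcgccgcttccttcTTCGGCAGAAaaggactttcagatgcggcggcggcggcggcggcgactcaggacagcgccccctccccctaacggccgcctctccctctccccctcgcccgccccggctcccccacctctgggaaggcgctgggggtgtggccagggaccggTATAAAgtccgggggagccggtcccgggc
IGFBP5, minus strand, chr2:216695550-216695799: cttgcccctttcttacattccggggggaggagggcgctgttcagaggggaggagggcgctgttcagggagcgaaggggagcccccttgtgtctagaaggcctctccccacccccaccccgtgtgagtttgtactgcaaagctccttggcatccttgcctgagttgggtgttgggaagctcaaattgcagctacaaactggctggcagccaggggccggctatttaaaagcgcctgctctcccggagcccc

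RefSeq promoters, from 250 bases before to 50 bases after a start, were matched for 7 of the 9 genes, in 10 windows. Searched on either strand, the pair with 4 bases between lay in 2 of these 10 windows, those of IGFBP4 and IGFBP6, and in 6.44% of all 35116 promoters. Neither IGF1 window held it. The pair with 3 bases between, TTCNNNGAA, which other STAT factors bind, lay in 0 of 10 windows and in 7.66% of all promoters. The SMAD elements CAGACA and GTCTAGAC, used in TGF-β signalling, lay in 0 of 10 windows and in 16.9% and 0.202% of all promoters. TATAAA lay in the IGFBP4 window alone and in 11.5% of all promoters. The IGF1 windows had a GC content of 42.3% and 43.7%, below the 55.3% to 79.7% of the other 8 windows.

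Binding protein genes other than IGFBP6 were expressed above the ligands and the receptor. Levels between genes were compared as CPM per kilobase of annotated exon, over 24 libraries. IGFBP7, whose protein binds IGFs only weakly and lies in the extracellular matrix, had the highest mean, 378 ± 228 (SD, n = 24). IGFBP5 followed with 103 ± 66.7, IGFBP3 with 70.1 ± 22.6, IGFBP4 with 69.1 ± 34.3 and IGFBP2 with 63.4 ± 10.5. The latter 3 lay within the SD of IGFBP5, and the order of these 4 does not hold beyond the spread between libraries. The receptor IGF1R had 13.8 ± 3.86. IGFBP6, a binding protein that prefers IGF2, had 4.17 ± 2.26 and IGF2 3.83 ± 1.16, which differ by less than their SDs. IGF1 was the lowest, with 0.531 ± 0.396. Exon length is the union over annotated transcripts, so a gene that uses a short transcript is understated.

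IGFBP7 took 32.7% to 78.9% of the summed level of the 6 binding protein genes in vehicle libraries and 35.9% to 73.4% in IL-4+IL-13 libraries. In vehicle libraries IGFBP5 took between 2.86% and 30.1%, and IGFBP4 between 2.29% and 19.8%. The ranges of each share overlapped between all 4 treatments.

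**Figure D1:**
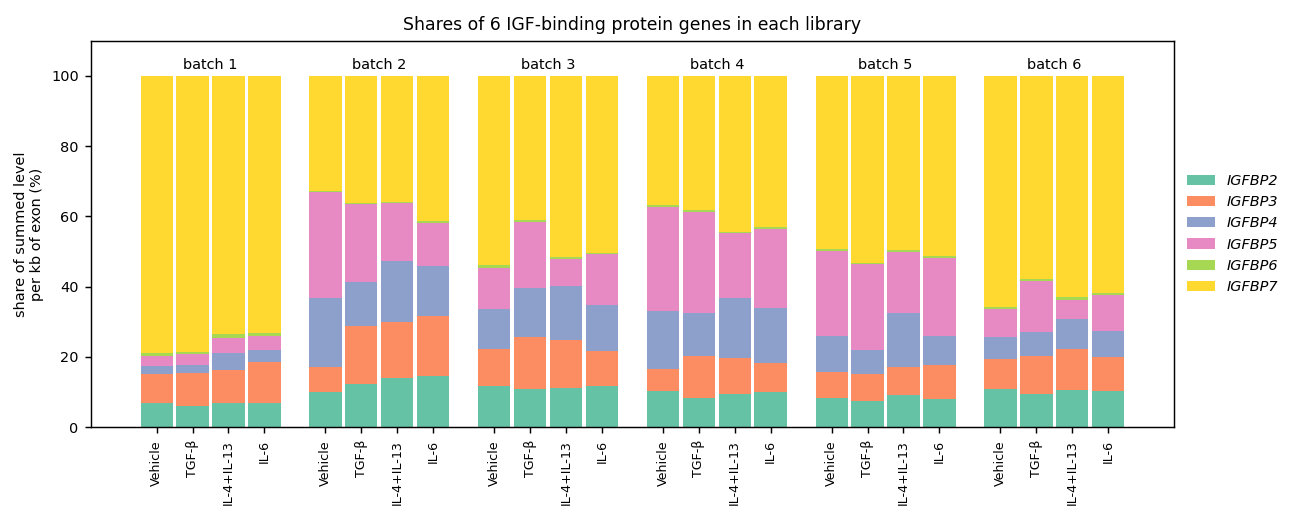
Share (%) of each of 6 IGF-binding protein genes in their summed level per kilobase of exon, 1 stacked bar per library, 4 treatments in each of 6 batches. IGFBP7 takes the largest share in batch 1, and IGFBP4 and IGFBP5 take more in batches 4 and 5 than in batch 1.

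The differentiation batch set the level of most members. Of the sum of squares of the log2(CPM + 1) level, batch held 91.3% for IGFBP7, 89.6% for IGFBP6, 81.8% for IGF1R and 81.1% for IGFBP4, and treatment held 1.05%, 2.86%, 5.16% and 5.69%. Treatment held the largest part for IGF1, 36.5% beside 46.3% for batch, and then for IGFBP3, 18.6% beside 54.4%. Batch 1 had the highest mean level of 7 genes, IGF1, IGF2, IGF1R, IGFBP2, IGFBP3, IGFBP6 and IGFBP7. IGFBP4 and IGFBP5 went the other way, with their lowest mean level in batch 1 and their highest in batch 4. Marker sums differed in batch 1 as well. Neuron markers summed to 1150 to 2000 CPM there and to 2280 to 5250 CPM in the other batches. Within each treatment, smooth muscle (789 to 1710 CPM), epithelial (544 to 1020 CPM) and leukocyte (35.4 to 54.2 CPM) sums were highest in batch 1. The part of these cells in the batch 1 levels was not tested. Without batch 1, the batch share of IGF1R fell to 31.3% and that of IGFBP6 to 58.3%. For IGFBP3 it fell to 26.3%, below the 37.7% of treatment, for IGF2 to 35.5% and for IGF1 to 40.6%, beside 37.4% for treatment. In contrast, IGFBP7 kept 76.1%, IGFBP4 74.6%, IGFBP5 71.7% and IGFBP2 66.9%.

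**Figure D2:**
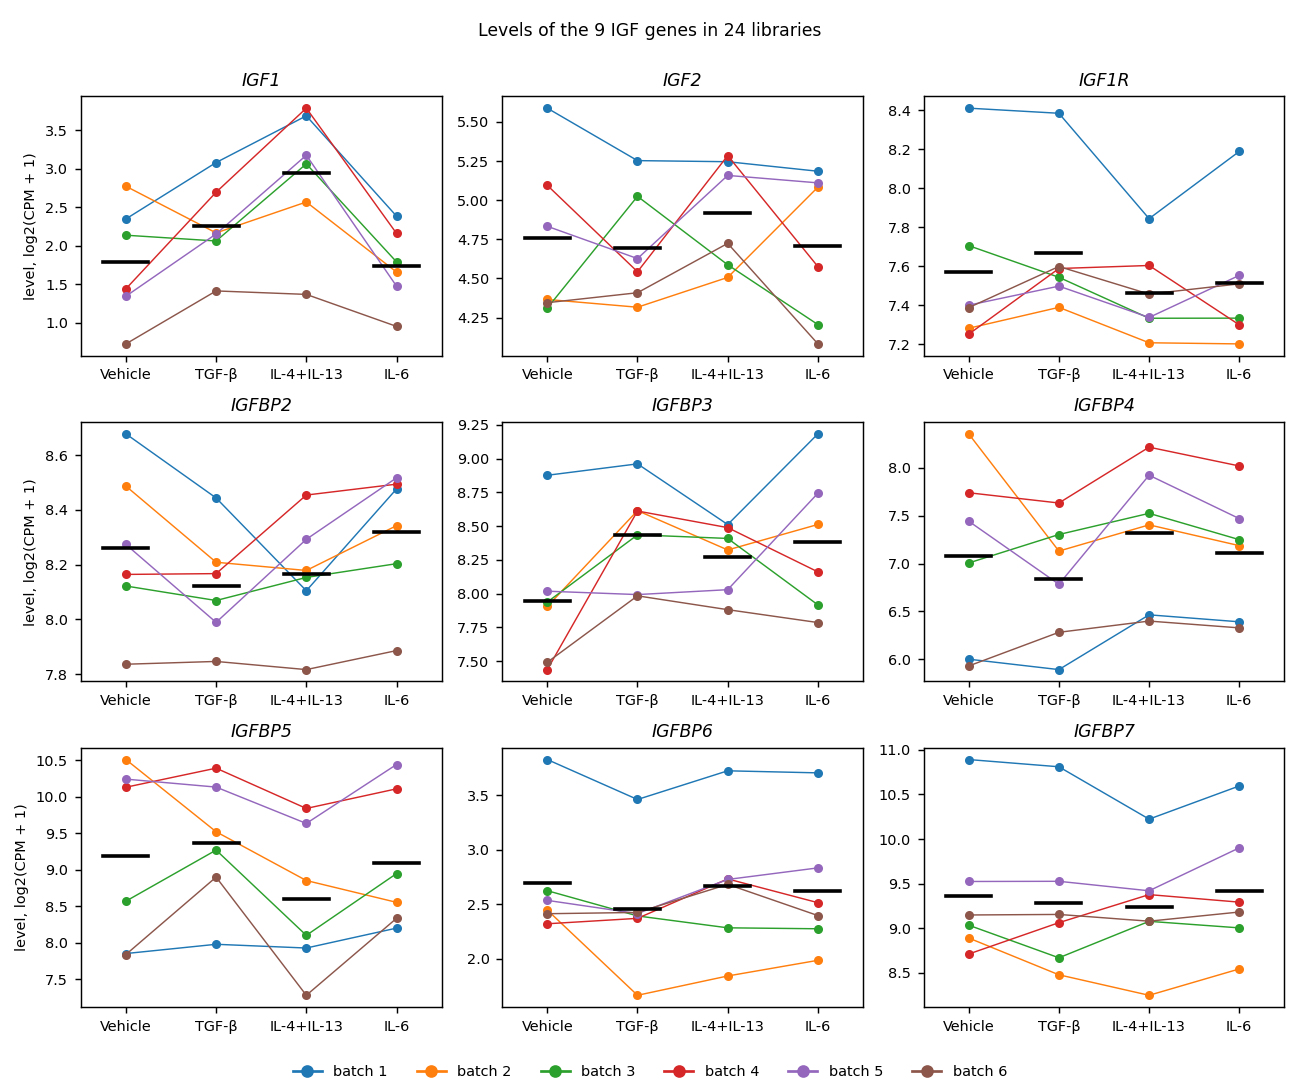
Level, log2(CPM + 1), of the 9 genes in 24 libraries. Each point is a library, lines join the 4 libraries of a batch, and black bars are the means of 6 batches. IGF1 has its highest group mean, 2.94, under IL-4+IL-13, while the blue line of batch 1 lies apart from the other batches for IGF1R, IGFBP6 and IGFBP7.

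IGF1 rose under IL-4+IL-13. Its raw counts ran from 27 to 216 in vehicle libraries (median 94.0), from 61 to 244 under TGF-β (median 121), from 57 to 500 under IL-4+IL-13 (median 268) and from 35 to 144 under IL-6 (median 80.5). From batch 1 to batch 6, the vehicle libraries held 145, 216, 121, 67, 54 and 27 counts and the IL-4+IL-13 libraries 455, 183, 245, 500, 291 and 57. The groups overlapped, but IL-4+IL-13 was higher than vehicle in 5 of 6 batches. The exception was batch 2, where the vehicle library is the one that resembled batch 4. IGF1 had a log2 fold change of 1.41 (SE 0.294, a fold of 2.66), with an adjusted p of 0.0255 in edgeR's quasi-likelihood test with Benjamini-Hochberg adjustment and 0.000388 in DESeq2. It was 1 of 9 genes called, in a comparison where 0.633% of entries were (1.96% by DESeq2). The study lists IGF1 among the genes changed in cultures of this kind and describes fewer samples per treatment than are analysed here, without naming them. The call is therefore not independent evidence.

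The call of IGF1 depended on which libraries were fitted. Without the vehicle library of batch 2 the log2 fold change was 1.79 (adjusted p = 0.00023, edgeR) and without those of batches 2 and 4 it was 1.59 (adjusted p = 0.000603, edgeR). When batch 1, 3, 4, 5 or 6 was left out instead, the log2 fold change stayed between 1.15 and 1.49 and the adjusted p rose to between 0.0950 and 0.228. IGF1 was also not called with the 18 libraries without IL-6 (log2 fold change 1.44, adjusted p = 0.131, edgeR).

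IGF2 (chromosome 11, 2129117 to 2149566), the growth factor of fetal tissue, passed no test. It had 671 to 1670 counts in vehicle libraries and 768 to 1487 under IL-4+IL-13, where its log2 fold change was 0.17 (SE 0.179) with 5 of 6 batches higher. The read-through entry INS-IGF2, which shares its exons, held 5 reads in all, beside 23710 of IGF2.

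The receptor IGF1R (chromosome 15, 98648539 to 98964530) stayed near its vehicle level, with log2 fold changes of 0.087 under TGF-β, -0.11 under IL-4+IL-13 and -0.064 under IL-6 (SE 0.0860 to 0.0862). Its counts ran from 5732 to 12020 in vehicle libraries and from 5344 to 8778 under IL-4+IL-13, with batch 1 the highest in each group.

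**Figure D3:**
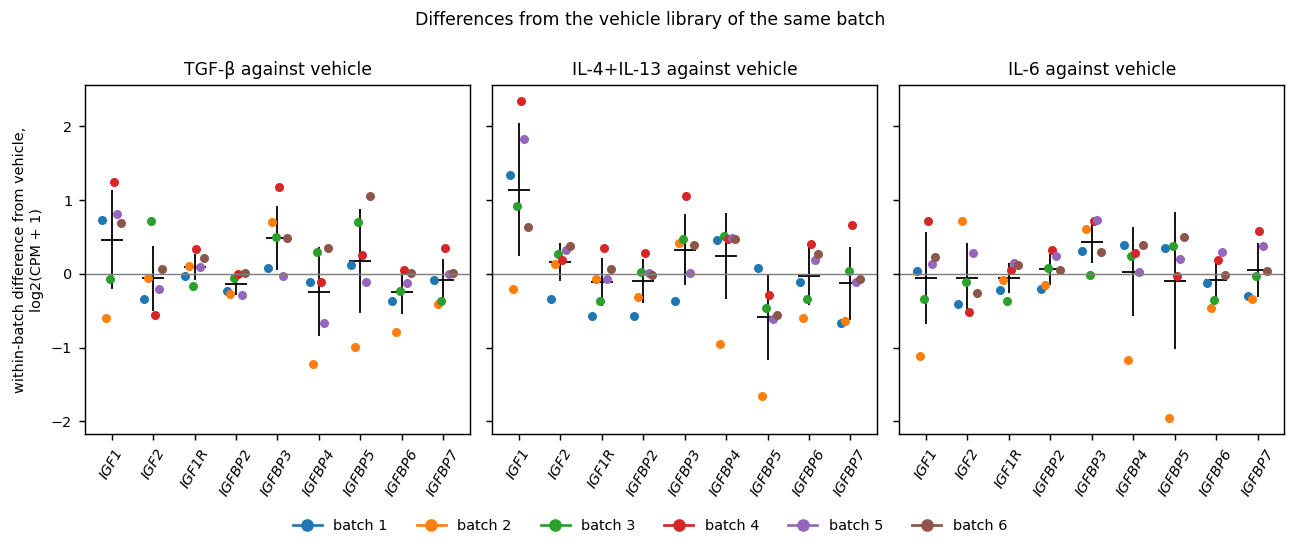
Difference in level, log2(CPM + 1), between each treated library and the vehicle library of its batch, for the 9 genes and 3 treatments. Coloured points are batches and black bars the mean and SD of 6 batches. IGF1 under IL-4+IL-13 has the largest mean difference, 1.14, and batch 2 lies below the other batches for IGFBP4 and IGFBP5 under each treatment.

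IGFBP3 (chromosome 7, 45912245 to 45921272), the main IGF carrier of blood, was higher than vehicle in 5 of 6 batches under each treatment, without passing the test. Its counts ran from 6723 to 16623 in vehicle libraries (median 8765), from 8901 to 16283 under TGF-β (median 13026) and from 8444 to 14019 under IL-4+IL-13 (median 11574). Under IL-6 they ran from 8187 to 19793 (median 11406). The treated groups overlapped vehicle, whose batch 1 library was high. The log2 fold changes were 0.49 (SE 0.155) under TGF-β, 0.33 (SE 0.155) under IL-4+IL-13 and 0.45 (SE 0.155) under IL-6, with adjusted p-values of 0.289, 0.542 and 0.850 in edgeR. These 3 comparisons share the vehicle libraries, of which batch 4 held the lowest count, and without the vehicle libraries of batches 2 and 4 the log2 fold changes were 0.33, 0.17 and 0.29.

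IGFBP4 (chromosome 17, 40443450 to 40457725), an inhibitor of IGF action that the protease PAPPA cleaves, and IGFBP5 (chromosome 2, 216672105 to 216695549), which binds IGFs and extracellular matrix, differed in opposite directions between TGF-β and IL-4+IL-13. IGFBP4 had 1912 to 6535 counts under TGF-β (median 4288) and 3001 to 11609 under IL-4+IL-13 (median 6183), and was the lower with TGF-β in 6 of 6 batches. IGFBP5 had 8246 to 44434 counts under TGF-β (median 24272) and 5570 to 35876 under IL-4+IL-13 (median 13241), and was higher under TGF-β in 6 of 6 batches. The groups overlapped for each gene, because batches differed more than treatments. With TGF-β, IGF1 was lower than with IL-4+IL-13 in 5 of 6 batches.

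In the fit of 24 libraries these differences did not pass: 0 of 9 genes were called in the direct comparison of TGF-β with IL-4+IL-13, where 2.98% of entries were. The log2 fold changes were -0.48 (SE 0.184, adjusted p = 0.237, edgeR) for IGFBP4, 0.77 (SE 0.250, adjusted p = 0.133) for IGFBP5 and -0.84 (SE 0.284, adjusted p = 0.149) for IGF1. At an unadjusted p under 0.05, 4 of the 9 genes were reached, these 3 and IGF1R, beside 12.2% of all entries. DESeq2 called IGFBP5 (adjusted p = 0.0352) and 5.34% of entries. Without the vehicle library of batch 2, which belongs to neither group but is part of the fit, IGFBP4, IGFBP5 and IGF1 were called, with log2 fold changes of -0.48, 0.76 and -0.83 (edgeR, adjusted p = 0.00708, 0.0136 and 0.0192), in a fit that called 4.93% of entries. In a fit of the 12 libraries compared, none of the 3 was called (adjusted p = 0.115, 0.0969 and 0.0524, edgeR).

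**Figure D4:**
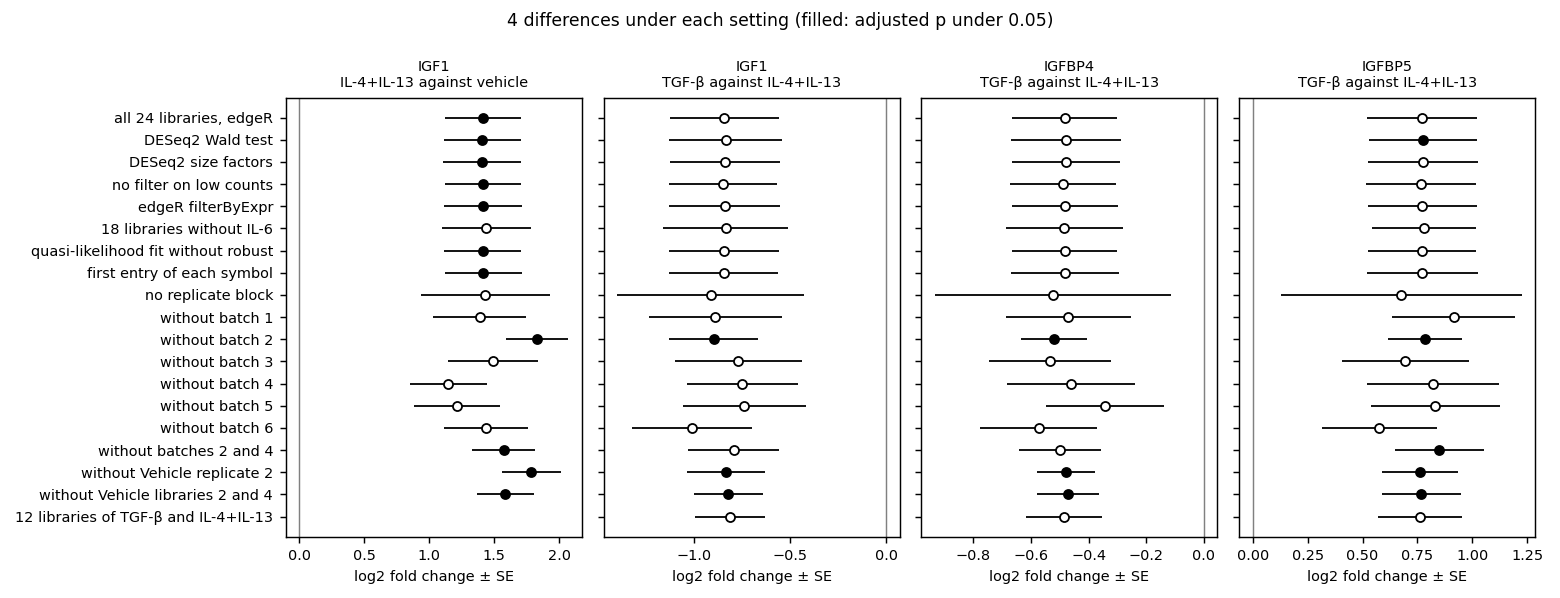
Log2 fold change (point) and SE (bar) of IGF1, IGFBP4 and IGFBP5 in 4 panels, under each way of fitting the data. Filled points have an adjusted p under 0.05. The direction is the same in each panel, and the 3 panels of the direct comparison all have filled points without batch 2, without its vehicle library, and without the vehicle libraries of batches 2 and 4.

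Against vehicle, IGFBP4 and IGFBP5 did not pass. The vehicle library of batch 2 held 12107 counts of IGFBP4 and 54025 of IGFBP5, the highest of all 24 libraries, whereas the treated libraries of batch 2 held 4695 to 6257 and 12174 to 25039. IGFBP4 under IL-4+IL-13 was higher by 0.46 to 0.52 in each of the other 5 batches on the log2(CPM + 1) scale and lower by 0.95 in batch 2. Its log2 fold change was 0.21 (SE 0.185, adjusted p = 0.784, edgeR) with all libraries. It was 0.48 and not called without batch 2 as a whole (adjusted p = 0.0603, edgeR). In fits chosen after seeing the data, it was 0.47 (adjusted p = 0.0442, edgeR) without the vehicle library of batch 2, where 0.765% of entries were called, and 0.48 (adjusted p = 0.110, edgeR) without those of batches 2 and 4. IGFBP5 under IL-4+IL-13 was lower in 5 of 6 batches, with a log2 fold change of -0.64 (SE 0.251, adjusted p = 0.435, edgeR) that shrank to -0.26 without the vehicle libraries of batches 2 and 4.

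Of 7 mesenchymal markers, 1 passed between TGF-β and IL-4+IL-13: COL1A1, the main chain of type I collagen, was the higher with TGF-β (log2 fold change 1.31, adjusted p = 0.00675, edgeR). The median log2 fold change of the 7 was 0.069, with 0.069 for COL1A2, -0.060 for COL3A1 and -0.17 for DCN. Their summed level was 4170 to 13400 CPM (median 6540) under TGF-β and 2670 to 6260 CPM (median 4570) under IL-4+IL-13. Their part in the IGFBP5 difference was not tested.

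IGFBP2 (chromosome 2, 216632828 to 216664436), a binding protein of the developing nervous system, had 9359 to 14479 counts in vehicle libraries and log2 fold changes between -0.14 and 0.056 in the 3 comparisons with vehicle (SE 0.0853 to 0.0854). IGFBP6 (chromosome 12, 53097667 to 53102340) had 156 to 468 counts in vehicle libraries and 74 to 328 under TGF-β, where its log2 fold change was -0.31 (SE 0.144, adjusted p = 0.655, edgeR), and -0.18 without the vehicle library of batch 2. IGFBP7 (chromosome 4, 57030773 to 57110385) had 16310 to 67285 counts in vehicle libraries and log2 fold changes between -0.13 and 0.038 (SE 0.131). Batch 1 held the highest count of IGFBP7 in every group. These 3 genes passed no test, and their groups overlapped.

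Under TGF-β 0 of 9 genes were called, beside 0.347% of entries, and IGF1 had a log2 fold change of 0.57 (SE 0.292, adjusted p = 0.728, edgeR) with 4 of 6 batches higher. Without the vehicle library of batch 2 it had 0.95 (adjusted p = 0.0759, edgeR), and without those of batches 2 and 4 it had 0.77 (adjusted p = 0.165, edgeR). Under IL-6 0 of 9 genes were called, beside 0% of entries in edgeR (1400 entries, 4.77%, at an unadjusted p under 0.05, and 134 by DESeq2). IGFBP3 was the only member with an unadjusted p under 0.05 there. The median log2 fold change of the 9 genes was -0.048 under TGF-β, -0.052 under IL-4+IL-13 and -0.030 under IL-6, and that of all entries tested was -0.0123, -0.00768 and -0.0133.

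Of 28 other genes of the pathway, 27 were tested. HTRA1, a secreted serine protease that cleaves binding proteins such as IGFBP5, fell under IL-4+IL-13 and was the only one that edgeR called against vehicle. Of the 27, edgeR called 1 under IL-4+IL-13 (0.633% of all entries), 0 under TGF-β (0.347%) and 0 under IL-6 (0%). DESeq2 called 1 of 27 under TGF-β, IRS4, beside 1.71% of entries. HTRA1 counts ran from 6710 to 14478 in vehicle libraries (median 11969), from 8122 to 14944 under TGF-β (median 11849) and from 4484 to 10580 under IL-4+IL-13 (median 8500). The IL-4+IL-13 library was the lower in 6 of 6 batches, though the groups overlapped. The log2 fold change was -0.46 (SE 0.0912, adjusted p = 0.0173, edgeR) under IL-4+IL-13. With TGF-β, HTRA1 exceeded its IL-4+IL-13 level by 0.65 (SE 0.0914, adjusted p = 0.000283, edgeR), in 6 of 6 batches. Without the vehicle libraries of batches 2 and 4 it stayed called, at -0.40 (adjusted p = 0.0350) and 0.65 (adjusted p = 3.83e-05, edgeR), but against vehicle it was not called without batch 1, 3 or 6 (adjusted p = 0.161, 0.102 and 0.0765).

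IRS4, an adaptor that carries the signal of the insulin and IGF1 receptors into the cell, was the other gene called in the direct comparison. In all, 2 of 27 were called there, beside 2.98% of entries. IRS4 had 432 to 1287 counts under TGF-β (median 621) and 766 to 1868 under IL-4+IL-13 (median 945). TGF-β had the lower value in 5 of 6 batches, at a log2 fold change of -0.56 (SE 0.138, adjusted p = 0.0298, edgeR), a call that was lost without batch 3, 4, 5 or 6. Set against vehicle, the TGF-β library was the lower in 6 of 6 batches, by the same -0.56 on the log2 scale, which did not pass in edgeR (adjusted p = 0.0984) and passed in DESeq2 (adjusted p = 0.0123). The adaptors IRS1 and IRS2 had log2 fold changes between -0.11 and 0.054 against vehicle.

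The remaining proteases, their inhibitors and the other receptors did not pass in any comparison. PAPPA had 1884 to 12079 counts over 24 libraries and PAPPA2, which cleaves IGFBP5, 74 to 1201. STC2, an inhibitor of PAPPA, had a log2 fold change of 0.80 between TGF-β and IL-4+IL-13 (SE 0.224, adjusted p = 0.0641, edgeR; DESeq2 0.00888), and STC1 had 0.25. IGF2R, which clears IGF2 from the cell surface, had 5032 to 12417 counts, and the insulin receptor INSR 957 to 1693. IGFBP1, the binding protein made by liver, had 0 to 18 counts, and insulin itself (INS) 0 to 9. H19, the imprinted neighbour of IGF2, had no entry under that symbol in the count table and could not be tested.

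For each member the 3 genes with the most similar pattern over 24 libraries were listed, by Pearson's r of log2(CPM + 1) with the batch mean taken off, among entries with a mean count of at least 100. The libraries share batches and depth, so r is a description. For IGF1 these were PMCH (r = 0.907), COL6A2 (0.889) and LRRFIP1 (0.881), and for IGFBP5 PWWP3B (0.856), USH1C (0.852) and CDH11 (0.844). For IGFBP4 they were PDE7B (0.838), ARHGAP29 (0.827) and SERGEF (0.822), and for IGFBP3 KDELR2 (0.831), SURF4 (0.828) and SUGCT (0.787). IGFBP7 had GSTP1 (0.941), RHOC (0.929) and GLB1 (0.920), and IGFBP2 had PPME1 (0.882), RHOC (0.850) and MAN1B1 (0.848). IGF1R had PDGFC (0.874), ENAH (0.873) and SLC25A32 (0.853), IGFBP6 had GEM (0.850), SOSTDC1 (0.841) and ZER1 (0.840), and IGF2 had ASB8 (0.765), CDPF1 (0.716) and FKBP2 (0.712). With the batch differences kept, the first gene was MFSD12 (0.818) for IGF1, ISLR (0.921) for IGFBP4 and THBS2 (0.915) for IGFBP5.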

How the data were processed

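RNA-seq libraries (24, 6 batches in 4 treatments) were analysed from the raw read counts per gene that the authors deposited, without normalization. Per the labels and the study's methods, reads were trimmed with Trimmomatic 0.30 and aligned to GRCh38.p14. How reads were mapped and counted, and whether by strand, is not given in the sources used here, so reads of overlapping genes (LINC02456 for IGF1, IGF2-AS for IGF2, POLR2B for IGFBP7) cannot be told apart by strand.

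Counts were tested by the quasi-likelihood F test of edgeR 4.0.16 (robust, with TMM scaling, batch and treatment as terms, all 24 libraries in 1 fit), with Benjamini-Hochberg adjustment over 29377 entries with a total count of at least 10. Called genes had an adjusted p under 0.05. Standard errors are the absolute log2 fold change divided by the root of F. DESeq2 1.42.0 was run as an alternative. Levels are log2(CPM + 1) with TMM library sizes. Exon lengths are from GENCODE 44, positions and promoters from RefSeq. The edgeR fit was tested on simulated data with the batch pairing kept and changes placed in entries with a mean count of at least 100. It called 58% of changes of 0.5 in log2 size, 90% of changes of 1, 96% of 1.5 and 98% of 3. There were 4 false calls among 28891 entries. The changed entries were drawn at random, and no vehicle library was exchanged between batches in the simulation. These rates therefore do not give the share of changes that would be found among the 9 genes. Changes near 0.5 or below can be missed, and larger ones as well. In the direct comparison of TGF-β with IL-4+IL-13, estimates of 0.77 for IGFBP5 (SE 0.250) and -0.84 for IGF1 (SE 0.284) were not called. Libraries held 33342682 to 39817784 counts, and the lowest member count was 27 (IGF1).

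Batches pair the libraries per the labels: over 15260 entries the median correlation of deviations from the group means was 0.737 in 36 pairs of the same batch and -0.180 in 180 other pairs. With batch as a term, p-values measure the spread of treatment differences between differentiations of 1 line, and not the spread of levels between batches.

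The members, gene lists and motifs were chosen with earlier results of these data known. Every member is named in every comparison, of the pathway list those called (5 at most) and 8 fixed genes, and for likeness the first 3 symbols. Alternatives covered the tool, the normalization, the filter, the block and the libraries left out. The fits without single vehicle libraries and of 12 libraries were added after seeing the data.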

Additional observations from a re-analysis of the deposited data

Results flagged for a closer look

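Within each group of 6 libraries the lowest and highest level of each gene was set against the rest, in 36 groups. By chance about 1 group in 20 stands out if groups are independent, and 4 of 36 did, each time with the batch 1 library as the highest. These groups are not independent, because the same 6 batches recur in each treatment. The 3 genes flagged also varied together (Pearson's r of 0.855 to 0.935 over 24 libraries). The 4 are therefore not separate findings, and their number cannot be set against chance. IGF1R had a level of 8.38 in the TGF-β library of batch 1, with the other batches between 7.39 and 7.60, and 8.19 in the IL-6 library, with the others between 7.20 and 7.55, all on the log2(CPM + 1) scale. IGFBP6 stood at 3.83 in the vehicle library of batch 1 and at 2.32 to 2.62 in the other vehicle libraries. IGFBP7 stood at 10.89 in the vehicle library of batch 1 and at 8.71 to 9.52 in the others.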

How the results depend on the processing

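Calls depended mainly on the libraries fitted, and the cause was not tested. Of 36 log2 fold changes of the 9 genes, 14 changed sign under at least 1 alternative, none of them called and none above 0.276 in size. With no replicate block (batch left out of the model), 0 of 9 genes were called in IL-4+IL-13 against vehicle, beside 0.0443% of entries. Of the 27 other pathway genes, 0 were called there or in the direct comparison, where 0.174% of entries were. The unpaired fit turned IGFBP5 under TGF-β to -0.026 and IGFBP7 under IL-6 to -0.0073. Without IL-6 libraries, 0 of 9 and 0 of 27 were called under IL-4+IL-13. DESeq2 called 1 of 27 other pathway genes under TGF-β, beside 1.71% of entries. In TGF-β against IL-4+IL-13 it called 1 of 9 and 4 of 27, beside 5.34% of entries. Leaving out single batches or the vehicle library of batch 2 gave 0 to 2 of 9 genes and 0 to 1 of 27 under IL-4+IL-13, and 0 to 3 of 9 and 1 to 3 of 27 in the direct comparison. Among these fits, the one without batch 1 called 0.349% of entries under IL-4+IL-13 and 2.61% in the direct comparison. The one without the vehicle library of batch 2 called 0.765% and 4.93%. Shares of entries called were not computed for the other fits with libraries left out, those without IL-6 and of 12 libraries included. The counts of these fits cannot be set against all entries and are no result about the 9 or the 27 genes. Without batches 2 and 4 there were 0 of 27 under IL-4+IL-13 and 1 of 9 and 1 of 27 in the direct comparison, in which the fit without the vehicle libraries of batches 2 and 4 called 3 of 9 and the fit of 12 libraries 1 of 27.

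The same single removals took these log2 fold changes across 0. Under TGF-β, IGF2 ran from -0.22 to 0.062 and IGFBP5 from -0.072 to 0.46. Under IL-4+IL-13, IGFBP2 ran from -0.17 to 0.00387 and IGFBP6 from -0.15 to 0.10. Under IL-6, IGF1 ran from -0.35 to 0.23, IGF2 from -0.21 to 0.073, IGF1R from -0.10 to 0.00928, IGFBP4 from -0.094 to 0.27, IGFBP5 from -0.23 to 0.28, IGFBP6 from -0.20 to 0.027 and IGFBP7 from -0.055 to 0.12. In the direct comparison, IGFBP2 ran from -0.13 to 0.00978 and IGFBP7 from -0.080 to 0.13. Without batches 2 and 4, values were 0.076 for IGF2 under TGF-β, 0.00372 for IGFBP6 under IL-4+IL-13, and 0.026, 0.26 and 0.35 for IGF1, IGFBP4 and IGFBP5 under IL-6. Without the vehicle libraries of batches 2 and 4 they were 0.011 for IGFBP4 under TGF-β, 0.021 for IGFBP6 under IL-4+IL-13, and 0.032, 0.26 and 0.23 for IGF1, IGFBP4 and IGFBP5 under IL-6. The median vehicle level over the 9 genes was 7.57 as log2(CPM + 1) and 12.7 as log2 counts over DESeq2 size factors, which is another unit.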

Other observations

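PMCH, which encodes the precursor of melanin-concentrating hormone, had the pattern most like that of IGF1 and lies 198 kb from it on chromosome 12 (102196459 to 102197833). It rose under IL-4+IL-13, from 97 to 1484 counts in vehicle libraries (median 209) to 749 to 5570 (median 1098), higher in 6 of 6 batches, with a log2 fold change of 2.31 (SE 0.199, adjusted p = 6.05e-06, edgeR). With TGF-β it was lower than with IL-4+IL-13 in 6 of 6 batches (log2 fold change -1.47, adjusted p = 0.000162, edgeR). PARPBP (102120183 to 102197520), whose annotated span overlaps that of PMCH, rose as well, from 62 to 137 counts in vehicle libraries to 125 to 591 under IL-4+IL-13 (log2 fold change 1.20, SE 0.203, adjusted p = 0.00462, edgeR, 6 of 6 batches higher). It was also higher than vehicle in 6 of 6 batches with TGF-β and in 6 of 6 with IL-6, and its difference between TGF-β and IL-4+IL-13 did not pass (log2 fold change -0.65, adjusted p = 0.0998, edgeR). With the strandedness unknown, reads of the overlap cannot be assigned to PMCH or PARPBP.

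Of 4 tested genes within 300 kb of IGF1, IGF1 included, the remaining one was NUP37, a nuclear pore gene, with a log2 fold change of 0.23 (SE 0.123, adjusted p = 0.619, edgeR). Without the vehicle library of batch 2 the log2 fold changes under IL-4+IL-13 were 2.41 for PMCH, 1.12 for PARPBP and 0.10 for NUP37. The neighbours of IGF1 were looked at after the values of PMCH were seen.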
